A study of Mus musculus with 6 samples.

Results

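The measurements concern 6 genes that code for inhibitory checkpoint receptors, Pdcd1, Havcr2, Lag3, Tigit, Ctla4 and Cd160. They were found by their symbols among the 31053 genes of the count matrices, each under 1 identifier, and all 6 had UMIs (unique molecular identifiers, each marking 1 captured RNA molecule) in each of the 6 libraries. The libraries are whole-tumour single-cell suspensions from male C57Bl/6 mice, 6 to 8 weeks old, that carried a subcutaneous tumour grown from 600000 injected YUMMER1.7 cells, a mouse melanoma line. After the tumours had formed, the mice were assigned at random to stay sedentary (replicates 1, 2 and 3) or to exercise by running at 12 m/min for 45 min a day on 14 consecutive days (replicates 5, 6 and 8). The graft is 1 cell line in inbred hosts with their own immune system, and nothing was sorted, so each library holds tumour, stromal and immune cells. The labels do not say whether a library is 1 mouse, so the p-values measure the spread between these libraries, part of which may be technical.

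These receptors sit on lymphocytes and dampen their activation. Pdcd1 codes for PD-1, which recruits tyrosine phosphatases to the activated T cell receptor and to CD28 when it meets PD-L1 or PD-L2. Ctla4 competes with CD28 for CD80 and CD86 and is held at high levels by regulatory T cells, Lag3 binds MHC class II, Tigit competes with CD226 for the poliovirus receptor family, Cd160 binds HVEM, and Havcr2 codes for TIM-3, which is known from exhausted T cells and also from dendritic cells and macrophages. T cells that meet antigen for long in a tumour are known to carry several of them at once, and a pool of T cells with the factor TCF-1 (Tcf7) is known to precede the exhausted ones.

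In the GENCODE M21 annotation of the mouse build GRCm38, which is the mm10 build named for these files, the 6 genes are protein coding. Pdcd1 spans chr1:94038305-94052553 on the minus strand and Ctla4 chr1:60887000-60915832 on the plus strand. Havcr2 spans chr11:46454935-46481255 (plus), Lag3 chr6:124904361-124911705 (minus), Tigit chr16:43648867-43664146 (minus) and Cd160 chr3:96798763-96829351 (minus). Lag3 lies upstream of Cd4 on the same strand, and its end is 16140 bases from the start of Cd4. A processed pseudogene, Rpl18-ps1, shares 525 bases with Ctla4 on the same strand, and 68 bases of Cd160 overlap Pdzk1 on the other strand.

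Promoter windows of 300 bases (250 before and 50 after the RefSeq start, GRCm38.p6) were found for 5 of the 6 genes, all but Lag3. The 3 windows shown belong to receptors that differed together between CD8 T cells with and without Tcf7 RNA, reported further on, and T cell factors are known to bind such regions. Capitals mark matches on either strand to GGAAA (the NFAT core), TGANTCA (AP-1), TCAAAG (TCF) or TGTGGT (RUNX). The windows are Pdcd1 at chr1:94052504-94052803 (minus strand), Havcr2 at chr11:46454681-46454980 (plus strand) and Ctla4 at chr1:60908775-60909074 (plus strand).
Pdcd1: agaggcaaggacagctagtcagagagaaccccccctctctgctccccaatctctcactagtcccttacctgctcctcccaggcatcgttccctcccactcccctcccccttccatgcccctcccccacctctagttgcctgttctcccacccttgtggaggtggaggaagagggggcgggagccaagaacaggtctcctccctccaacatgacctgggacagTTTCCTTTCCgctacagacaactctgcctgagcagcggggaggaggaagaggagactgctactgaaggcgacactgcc
Havcr2: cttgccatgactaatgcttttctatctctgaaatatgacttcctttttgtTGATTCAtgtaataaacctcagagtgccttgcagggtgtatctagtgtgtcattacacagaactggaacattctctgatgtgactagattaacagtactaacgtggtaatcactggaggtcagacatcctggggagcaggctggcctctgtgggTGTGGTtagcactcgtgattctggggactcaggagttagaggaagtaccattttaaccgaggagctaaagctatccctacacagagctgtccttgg
Ctla4: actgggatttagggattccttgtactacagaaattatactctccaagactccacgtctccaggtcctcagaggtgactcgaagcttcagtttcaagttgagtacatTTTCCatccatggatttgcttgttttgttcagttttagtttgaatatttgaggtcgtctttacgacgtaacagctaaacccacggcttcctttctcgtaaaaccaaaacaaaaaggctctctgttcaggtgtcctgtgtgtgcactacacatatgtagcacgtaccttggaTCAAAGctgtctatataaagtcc
The Pdcd1 window held 2 matches to the NFAT core, side by side, and none to the other 3 motifs. The Havcr2 window held 1 match to AP-1 and 1 to RUNX, and the Ctla4 window 1 to the NFAT core and 1 to TCF. The Ctla4 window starts inside the GENCODE gene, whose annotated start lies upstream. No match overlapped one to another motif. Of all 32851 windows of this length, 61.3% held the NFAT core, 7.81% AP-1, 16.0% TCF and 16.8% RUNX. A match is a description of the letters only.

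Cells were assigned to types by marker genes that include none of the 6 receptors. The 6 libraries held 97426009 to 131778565 UMIs, and 51529 cells were kept. The sizes of the 9 gates add up to 24992, where 7 cells that fell into more than 1 gate are counted in each. The gates held 2439 CD8 T cells, 221 regulatory T cells (Treg, Foxp3-positive), 96 other CD4 T cells, 796 natural killer (NK) cells, 5226 macrophages and monocytes, 114 type 1 conventional dendritic cells (cDC1), 92 mature dendritic cells, 477 neutrophils and 15531 non-immune cells, which serve as the background for free RNA. Gates were checked with markers left out of the gating. The most frequent were Nkg7 in CD8 T (median of 96.5% over libraries), Ikzf2 in Treg (95.4%), Gzma in NK (83.2%) and Lyz2 in macrophage gate cells (96.7%). Others were rarer, with Ikzf4 in 17.5% of Treg and Eomes in 39.5% of NK gate cells. Nkg7 was also found in 94.2% of NK gate cells, and Ikzf2 in 40.9% of CD8 T gate cells. Kept cells had a median of 5895 UMIs in exercise 5 and 6490 in sedentary 2, against 10489.5 to 12426 in the other 4 libraries, and CD8 T gate cells a median of 2781 to 4173.5. Each pair of libraries shared 19 to 35 cell barcodes, at most 0.391% of the smaller library. Levels below are counts per 1000000 UMIs (CPM) of the gate's summed cells, and they are compared between gates and libraries, not between genes. Differences between gates are log2 values from edgeR's quasi-likelihood test with the library as a block, Benjamini-Hochberg adjusted over 8948 genes and called at an adjusted p under 0.05, using the 49 sums of at least 10 cells (3 of other CD4 T, 5 of cDC1, 5 of mature dendritic cells and 6 of each other gate).

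Pdcd1 was highest in CD8 T cells. Its level there was 219.7, 147.6 and 209.6 CPM in sedentary 1, 2 and 3, and 205.0, 186.6 and 212.6 CPM in exercise 5, 6 and 8. Sedentary 2 was the lowest of the 6 libraries, and the groups overlapped. Other CD4 T cells, few in number, followed with 61.8 to 199 CPM, which did not differ from CD8 T cells beyond their spread (log2 difference 0.44, SE 0.31, adjusted p = 0.51). Treg held 0 to 94.2 CPM over the libraries, a log2 difference of 2.71 (SE 0.25, adjusted p = 1.2e-11) below CD8 T cells. Mature dendritic cells held 0 to 86.7 CPM, from 4 UMIs. In NK cells 13 UMIs of Pdcd1 were found in all, 1.94 to 6.57 CPM, and in macrophages 21 UMIs, 0.53 to 0.76 CPM.

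Lag3 had the same leading gate. CD8 T cells held 172.3, 197.9 and 181.6 CPM in the sedentary libraries and 140.1, 207.7 and 195.3 CPM in the exercise libraries, with exercise 5 the lowest. Treg ranged from 36.6 to 301 CPM, with exercise 5 the highest, and NK cells from 21.3 to 48.3 CPM. The macrophage gate held Lag3 at 15.5, 5.19 and 8.25 CPM in the sedentary libraries and 2.34, 8.76 and 17.0 CPM in the exercise libraries, from 259 UMIs. That level was low, but lay 4.70 (log2, SE 0.32, adjusted p = 7.0e-18) above the non-immune cells. NK cells exceeded macrophages by 1.89 (log2, SE 0.37, adjusted p = 2.9e-05), where 51.2% of the genes tested were called. Other CD4 T cells, at 0 to 145 CPM, did not differ from Treg (adjusted p = 0.91) or NK cells (adjusted p = 0.27) beyond their spread.

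Cd160, a receptor known from cytotoxic lymphocytes, had its highest mean levels in CD8 T and NK cells. Its level in CD8 T cells was 124.2, 123.9 and 104.8 CPM in the sedentary and 106.4, 149.3 and 133.6 CPM in the exercise libraries. NK cells held 85.4, 48.2 and 58.4 CPM in the sedentary and 91.1, 103 and 68.0 CPM in the exercise libraries. CD8 T cells exceeded NK cells by 0.74 (log2, SE 0.15, adjusted p = 0.00028). Other CD4 T cells held 8 UMIs, all in exercise 5 (72.4 CPM), and did not differ from NK cells beyond their spread (adjusted p = 0.20). Treg held 2 UMIs of Cd160 in all, and macrophages 9.

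Ctla4 marked the Treg gate. Treg held 498, 581 and 377 CPM in the sedentary libraries and 956, 335 and 123 CPM in the exercise libraries, and the 3 exercise libraries thus include both the highest and the lowest value. CD8 T cells held 20.8, 25.8 and 47.5 CPM in the sedentary and 51.0, 25.8 and 46.2 CPM in the exercise libraries, a log2 difference of 3.50 (SE 0.24, adjusted p = 4.6e-16) below Treg. Other CD4 T cells, gated without Foxp3 and Il2ra, held 0 to 356 CPM, below Treg (log2 difference 2.13, adjusted p = 0.0031, where 1.56% of genes were called) and not different from CD8 T cells beyond their spread (adjusted p = 0.18). NK cells held 0 to 6.57 CPM and macrophages at most 0.55 CPM.

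Tigit was the scarcest of the 6 genes in UMIs, with 257 in all kept cells. It was found at 6.1 to 64.5 CPM in Treg, 7.36 to 21.0 CPM in CD8 T cells and 0 to 14.6 CPM in NK cells. The neighbours in that order, Treg against CD8 T (adjusted p = 0.31) and CD8 T against NK cells (adjusted p = 0.16), did not differ beyond their spread, while Treg exceeded NK cells by 1.76 (log2, adjusted p = 0.045, where 11.1% of genes were called). No Tigit UMI was found in cDC1, mature dendritic cells or neutrophils.

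Havcr2 had the widest range of cell types. cDC1 held 152.8, 106.1 and 185.7 CPM in the sedentary and 54.3, 145.7 and 194.6 CPM in the exercise libraries, from 137 UMIs. CD8 T cells held 103.5, 127.6 and 129.9 CPM in the sedentary and 114.3, 147.4 and 124.6 CPM in the exercise libraries, and did not differ from cDC1 beyond the spread (log2 difference -0.27, SE 0.27, adjusted p = 0.49). Treg held 13.7 to 162 CPM. Macrophages held 61.8, 122.0 and 69.3 CPM in the sedentary and 70.9, 66.9 and 68.9 CPM in the exercise libraries, where sedentary 2 stood apart from the 5 others. Macrophages did not differ from Treg beyond the spread (adjusted p = 0.48), but lay below CD8 T cells (log2 difference 0.66, SE 0.18, adjusted p = 0.0011; adjusted p = 0.051 with DESeq2) and below cDC1 (0.93, adjusted p = 0.0073, where 27% of genes were called). NK cells held 2.08 to 21.9 CPM, and neutrophils 0 to 73.0 CPM from 8 UMIs. With looser gates cDC1 no longer stood highest: CD8 T cells were then 0.50 (log2) and macrophages 0.08 above cDC1.

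**Figure D1:**
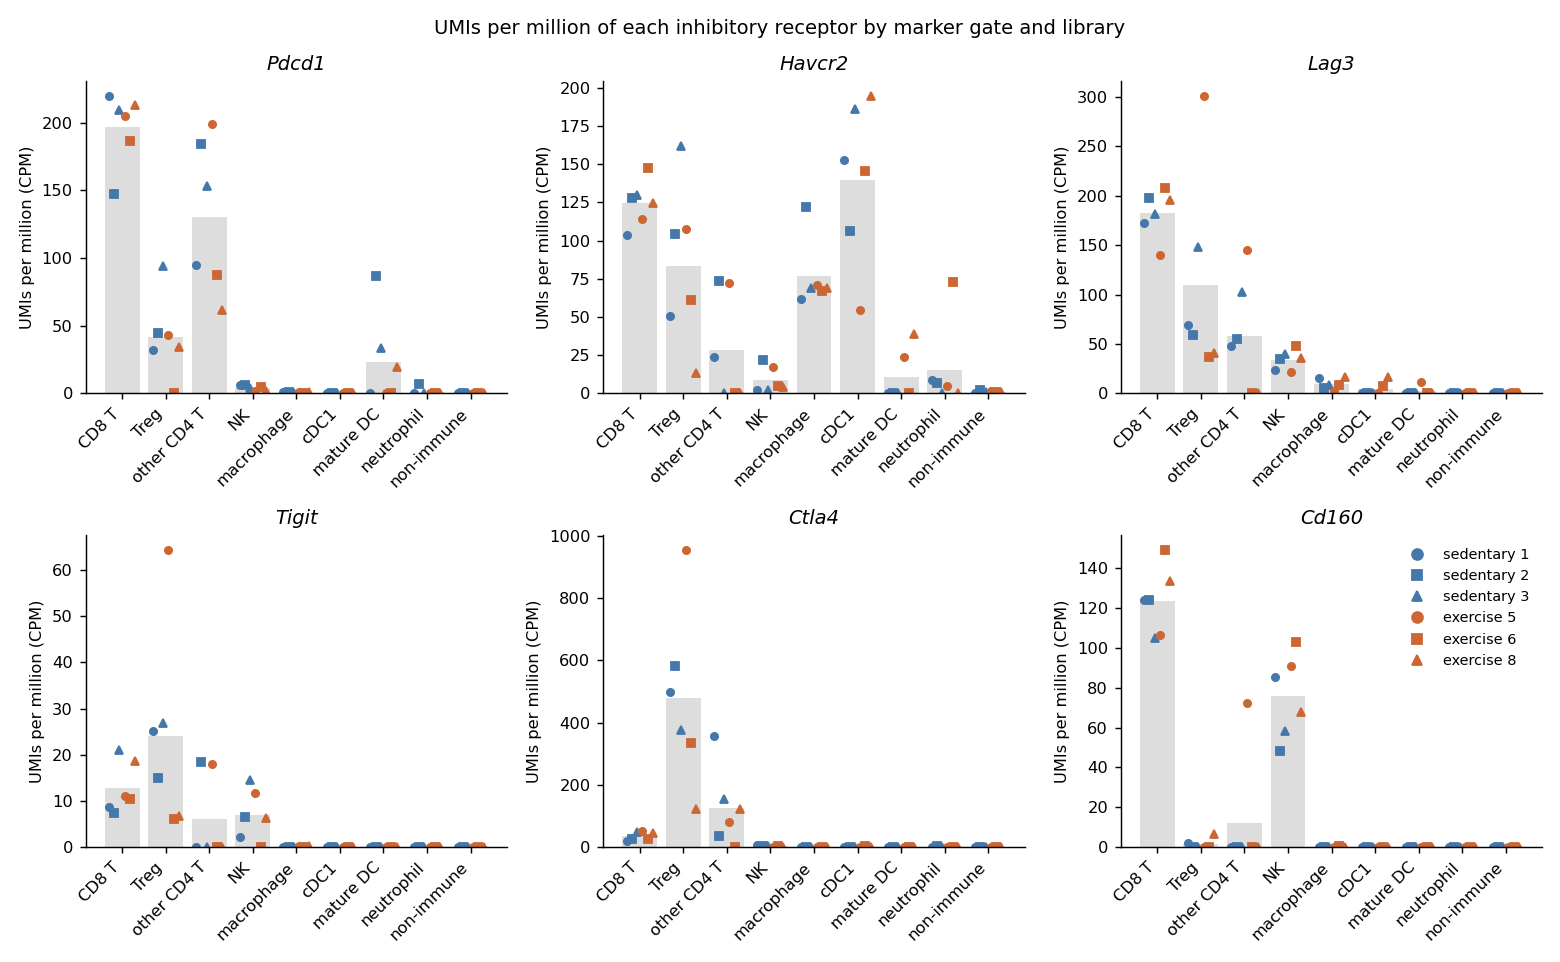
Level of each receptor gene in CPM (linear axis from 0, own scale per panel) in the 9 marker gates. Points are libraries (blue, sedentary; orange, exercise) and grey bars are the mean of the 6 libraries. Pdcd1, Lag3 and Cd160 stand highest in CD8 T cells and Ctla4 in Treg. Havcr2 has its highest means in cDC1, CD8 T cells, Treg and macrophages.

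Set against the other gates, CD8 T cells differed in 5 of 6 receptors from Treg, where 10.4% of the genes tested were called: Cd160 (6.13), Pdcd1, Lag3 (1.21, SE 0.33, adjusted p = 0.010) and Havcr2 (0.98, SE 0.31, adjusted p = 0.033) were higher and Ctla4 lower. The calls on Lag3 and Havcr2 were lost without sedentary 1, without exercise 6 or without exercise 8 (adjusted p between 0.057 and 0.20). With each library left out in turn the difference was 1.02 to 1.77 for Lag3 and 0.73 to 1.17 for Havcr2. Neither passed with DESeq2 or the stricter gates. That on Havcr2 was also lost with the looser gates (adjusted p = 0.15) and with called doublets kept (0.085). From NK cells CD8 T cells differed in 5 of 6, all higher, where 17.6% of genes were called: Pdcd1 by 5.53, Havcr2 by 3.90, Ctla4 by 3.56, Lag3 by 2.43 and Cd160 by 0.74. From macrophages they differed in all 6, all higher, where 64.8% of genes were called. From other CD4 T cells, where 3.19% of genes were called, Cd160 alone differed (1.91, SE 0.46, adjusted p = 0.012). From cDC1, where 28.3% of genes were called, they differed in 5 of 6, all but Havcr2. Macrophages exceeded non-immune cells as a share of UMIs in 5 of 6 receptors, all but Tigit, where 77.3% of genes were called. Non-immune cells had a median of 20348 to 29941 UMIs by library against 4566 to 6098 in macrophages. Counted per 1000 cells, macrophages held 497 UMIs of Havcr2 against 29.0 in non-immune cells, and 49.6 of Lag3 against 8.89. The other 4 receptors were close to or below the non-immune cells on that count, with 4.02 against 4.12 for Pdcd1, 2.30 against 2.25 for Ctla4, 1.72 against 2.90 for Cd160 and 0.574 against 0.901 for Tigit, and are read as background in macrophages. In non-immune cells Havcr2 was at 0.48 to 2.03 CPM and the other 5 receptors at no more than 0.54 CPM in any library.

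The same counts show which cells supply each receptor's RNA in the tumour. CD8 T gate cells held 73.2% of all Pdcd1 UMIs (62.5% to 80.4% by library), 67.2% of Cd160, 55.4% of Lag3 and 52.9% of Tigit. Of the Havcr2 UMIs, 40.5% (29.3% to 53.5%) were in macrophage gate cells and 22.5% (14.8% to 34.2%) in CD8 T gate cells. Treg gate cells, 221 of 51529, held 28.8% of the Ctla4 UMIs (10.4% to 55.1%) and CD8 T gate cells 28.0% (13.8% to 41.6%). Sedentary 1 gave 217 of the 446 Treg UMIs, and without it the shares were 19.9% and 32.6%. NK gate cells held 10.8% of Cd160. Between 19.1% (Cd160) and 37.4% (Ctla4) of a receptor's UMIs lay in cells outside all gates.

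Detection per cell was compared after each cell had been thinned at random to 2000 UMIs, which left out 137 sedentary and 338 exercise CD8 T gate cells with fewer. Of the thinned CD8 T cells 72.5% (median of 6 libraries, 69.7% to 76.7%) had at least 1 of the 6 receptors. In sedentary 3 the share was 69.7% of 132 cells (95% exact Clopper-Pearson interval 61.1% to 77.4%), and in exercise 8 it was 76.7% of 283 cells (71.3% to 81.5%). The intervals cover counting error only. Unthinned, the share was 74.6% to 91.7%. Pdcd1 was detected in 30.2% to 41.3% of the thinned cells, Lag3 in 26.5% to 36.8%, Cd160 in 18.9% to 26.7%, Havcr2 in 20.5% to 23.6%, Ctla4 in 3.08% to 10.2% and Tigit in 1.63% to 6.06%. Unthinned, the shares were 45.0% to 63.4% for Pdcd1, 37.0% to 57.5% for Lag3, 30.2% to 41.4% for Cd160, 30.9% to 39.3% for Havcr2, 8.76% to 16.3% for Ctla4 and 3.59% to 9.09% for Tigit. In the non-immune gate, at the same thinned depth, 0.207% to 0.619% of cells had any of the 6. Unthinned, with a median of 20348 to 29941 UMIs per cell, that share was 2.84% to 8.06%. The thinned shares in CD8 T cells lay above the thinned background in every library. Unthinned, the range of Tigit alone overlapped that of any of the 6 receptors in the deeper non-immune cells. Of Tigit itself, 14 UMIs were found in the 15531 non-immune cells, against 136 in the 2439 CD8 T gate cells.

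CD8 T cells with several receptors were common at this depth. Of 1964 thinned cells, 533 had none, 712 had 1, 494 had 2, 186 had 3, 36 had 4, 2 had 5 and 1 had 6 receptors. The mean number per cell was 1.24, 1.25 and 1.15 in the sedentary libraries and 1.23, 1.23 and 1.24 in the exercise libraries. Treg had a mean of 0.44 to 1.57 per cell over libraries (130 thinned cells), NK cells 0.25 to 0.36 and macrophages 0.15 to 0.27. In NK cells 1 of 507 thinned cells had 3 receptors, and of 4898 thinned macrophages none had more than 2. Thinning had left out 89 of 324 sedentary and 200 of 472 exercise NK gate cells.

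**Figure D2:**
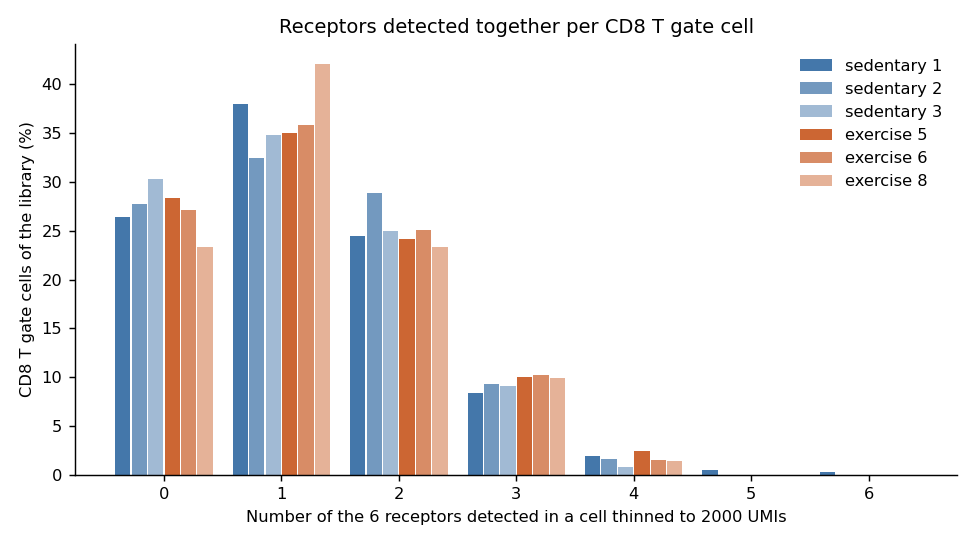
Share of CD8 T gate cells of each library (percent, linear axis) in which 0 to 6 of the receptors were detected after thinning to 2000 UMIs. Bars are libraries, blue for sedentary and orange for exercise. The shares with 2 receptors lie between 23.3% and 28.9% in all 6 libraries, and the groups overlap there.

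Pairs of receptors were set against the number of cells expected if each receptor fell on cells of a library independently. Havcr2 and Lag3 were found together in 176 of the 1964 CD8 T cells against 138 expected, a ratio of 1.28, above 1 in 5 of 6 libraries (0.96 to 1.51). Pdcd1 and Lag3 were together in 251 cells against 225 expected (1.11), Pdcd1 and Havcr2 in 171 against 154 (1.11), Lag3 and Cd160 in 172 against 150 (1.15), and Pdcd1 and Cd160 in 181 against 167 (1.09), each above 1 in 5 of 6 libraries. With another random draw of the same depth the ratio of Havcr2 and Lag3 was 1.16, above 1 in 4 of 6 libraries, and at 1000 UMIs per cell it was 1.41. These are weak associations in sparse counts of cells that share a library, and they carry no test. An excess was not seen in every pair. The mean ratio of Havcr2 and Cd160 was 0.92 in sedentary and 1.09 in exercise libraries. For Ctla4 the means were 1.62 and 0.865 with Havcr2, 1.16 and 0.731 with Lag3, and 1.03 and 1.09 with Pdcd1. Pairs with Tigit rested on at most 24 cells and varied more. None of the 15 pairs passed a test of exercise against sedentary libraries (exact two-sided permutation tests over 3 against 3 libraries, where 0.1 is the smallest p possible; adjusted p from 0.75 to 1). The ratios of Ctla4 and Cd160 did not overlap between the groups, with means of 0.592 in sedentary and 1.43 in exercise libraries (exact permutation p = 0.1). They rest on few cells: Ctla4 was detected in 10 thinned CD8 T cells in sedentary 3 and 6 in exercise 6. This was 1 of 15 pairs, and without a group difference a pair lacks overlap with a probability of 0.1.

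The study's own comparison is exercise against sedentary. In CD8 T cells edgeR's quasi-likelihood test called 0 of the 6 receptors, and 0% of all 9596 genes tested. No receptor had an unadjusted p under 0.05, while 442 genes did, and DESeq2 called 3 genes, none of them a receptor. The receptor nearest to a difference was Ctla4, with mean levels of 31.3 CPM ± 14.2 (SD, n = 3) in sedentary and 41.0 CPM ± 13.4 (SD, n = 3) in exercise libraries. Its log2 fold change was 0.57 (SE 0.30, adjusted p = 1.00; 0.30 to 1.00 over the alternatives), and it ranged from 0.34 without sedentary 1 to 0.86 without sedentary 3. Exercise 6 lay among the sedentary libraries at 25.8 CPM, so the groups overlapped. The log2 fold changes of Tigit (0.33, SE 0.39), Cd160 (0.08, SE 0.15), Havcr2 (0.07, SE 0.15), Pdcd1 (0.05, SE 0.15) and Lag3 (-0.07, SE 0.16) lay within 1 SE of 0, and the median over all genes tested was -0.01. That of Tigit ranged from 0.0435 without exercise 8 to 0.70 without sedentary 3. Those of Cd160, Havcr2, Pdcd1 and Lag3 changed sign when some single libraries were left out. The mean number of receptors detected per thinned CD8 T cell was 1.21 ± 0.05 (SD, n = 3) in sedentary and 1.23 ± 0.01 (SD, n = 3) in exercise libraries. An exact permutation test of these means, two-sided, gave p = 0.9 (adjusted p = 1 over 40 measures). The share with 3 or more receptors was 10.6% ± 0.657 (SD, n = 3) in sedentary and 11.8% ± 0.565 (SD, n = 3) in exercise libraries, with no overlap and an exact permutation p of 0.1, the smallest possible. Without thinning the order of those shares was the opposite, at 36.6% and 29.9%, and with another random draw or the stricter gates the groups overlapped. Without a group difference a measure lacks overlap with a probability of at most 0.1. The groups did not overlap in 3 of the 40 measures, each with an adjusted p of 1. The other 2, given as means over libraries, were the share of Treg with Pdcd1 and that of macrophages with 2 or more receptors. The share of Treg was 18.4% in sedentary and 1.45% in exercise libraries, from 11 of 85 and 1 of 45 cells. In sedentary 3 it rested on 4 of 12 cells. Thinning had left out 39 of 124 sedentary and 52 of 97 exercise Treg gate cells. The share of macrophages was 0.0268% and 0.284%, from 1 of 2302 and 7 of 2596 cells. The level of Pdcd1 in Treg overlapped between the groups.

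In Treg only Ctla4 and Havcr2 had enough counts for the test, and in that gate 0% of 1973 genes were called (55 at an unadjusted p under 0.05; DESeq2 also called 0). Ctla4 had a log2 fold change of -0.07 (SE 0.53) and Havcr2 one of -0.59 (SE 0.66), which ranged from -1.12 without sedentary 1 to -0.15 without sedentary 3. The exercise 5 library was highest in Ctla4, Lag3 and Tigit, and without it the fold change of Ctla4 was -0.94 and 78 genes were called, none of them a receptor. The gate held 20 to 80 cells per library, and of genes changed 4-fold in simulated counts of this gate 146 of 171 were called. Smaller changes, such as those fitted for the receptors, were not simulated. In NK cells Cd160 (0.43, SE 0.24) and Lag3 (0.09, SE 0.34) were tested, and 0% of 5830 genes were called (269 at an unadjusted p under 0.05; 1 with DESeq2). Mean Cd160 in NK cells was 64 CPM ± 19.2 (SD, n = 3) in sedentary and 87.3 CPM ± 17.8 (SD, n = 3) in exercise libraries, and its fold change ranged from 0.27 without sedentary 2 to 0.67 without sedentary 1. In macrophages Havcr2 (-0.31, SE 0.24) and Lag3 (-0.04, SE 0.62) were tested and neither was called, where 0.00932% of 10734 genes, 1 gene, were called (85 with DESeq2). The fold change of Havcr2 rested on sedentary 2, and without that library it was 0.08. The difference between the effect in CD8 T cells and that in each of the 3 other gates was tested as an interaction for all 6 receptors, and none was called (0 of 8922 genes in Treg, 0 in NK cells and 1, or 0.0112%, in macrophages; smallest adjusted p of a receptor 0.74).

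**Figure D3:**
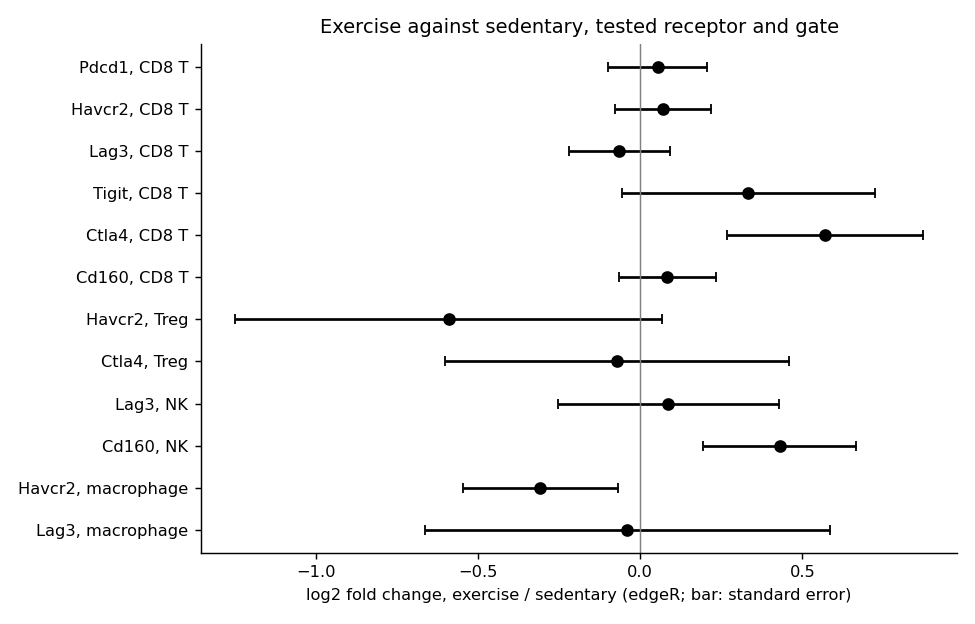
Log2 fold change of exercise over sedentary libraries (linear axis) for the 12 combinations of receptor and gate with enough counts, from edgeR. Points are estimates and bars 1 standard error. None passed the test, and the point farthest above 0 is Ctla4 in CD8 T cells at 0.57.

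Genes that act with these receptors were tested in the same fits. Of lists of 15 ligands, 13 other inhibitory receptors, 5 costimulatory receptors or coreceptors that share ligands with the 6, 20 regulators and 9 signalling genes, 0 passed edgeR's quasi-likelihood test in either direction in any of the 4 gates. At an unadjusted p under 0.05 there were 3 of 50 listed genes tested in CD8 T cells, all regulators, and in macrophages 5 ligands, 3 other inhibitory receptors and 2 signalling genes of 41, against 0 in Treg and NK cells. Over all genes tested the share at an unadjusted p under 0.05 was 4.61% in CD8 T cells and 9.13% (980 of 10734) in macrophages. DESeq2 called 0 of the listed genes as well, with 1, 1, 0 and 8 at an unadjusted p under 0.05 in CD8 T cells, Treg, NK cells and macrophages. In CD8 T cells the listed genes with the smallest unadjusted p were Batf (log2 fold change 0.46, SE 0.19) and Irf4 (0.63, SE 0.29), partners in transcription downstream of the T cell receptor, Tox (0.39, SE 0.17), a factor of exhausted T cells, and Tcf7 (-0.48, SE 0.24), each with an adjusted p of 1.00. The median over the 17 regulators tested was 0.06, against -0.01 over all genes. In macrophages they were the MHC class II genes H2-Eb1 (0.55, SE 0.15) and H2-Ab1 (0.52, SE 0.15), which code for the ligand of LAG-3, Pdcd1lg2 (0.74, SE 0.22), which codes for PD-L2, and Cd200r1 (0.56, SE 0.17), with adjusted p from 0.36 to 0.37. In Treg they were Sh2d2a (-0.89), Lgals3 (1.07), Klrg1 (-0.57) and Batf (-0.60), each with an adjusted p of 0.98. In NK cells they were Pdcd1lg2 (-0.58), Cd28 (0.47), Lgals3 (-0.44) and Sh2d2a (-0.28), each with an adjusted p of 1.00.

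Within the CD8 T gate the receptors differed between cell states. CD8 T cells with a Tcf7 UMI, 124 cells and 7 to 32 per library, were compared with the other 2315 cells of the gate, with the library as a block. Lag3 was at 10.0 to 85.5 CPM in the cells with Tcf7 and at 148.6 to 242.6 CPM in those without, and the values do not overlap. Its log2 difference was -2.13 (SE 0.28, adjusted p = 6.9e-05). Pdcd1 was at 0 to 144.0 CPM against 182.0 to 230.8 CPM (-1.95, SE 0.34, adjusted p = 0.00056). Havcr2 was at 0 to 50.6 CPM against 110.8 to 160.9 CPM (-1.96, SE 0.27, adjusted p = 0.00011). Ctla4 was at 0 to 41.1 CPM against 22.4 to 54.4 CPM (-2.06, SE 0.44, adjusted p = 0.0026). These 4 receptors were thus lower in cells with Tcf7 RNA, of 5 tested, where 21.8% of 6215 genes were called. Cd160 had a smaller difference (-0.72, SE 0.27, adjusted p = 0.062) that did not pass, and it passed without sedentary 1 (-0.99, adjusted p = 0.016), without exercise 8 (-0.90, adjusted p = 0.030), in the looser gates and with called doublets kept. In those 2 libraries Cd160 was as high in the cells with Tcf7 (130.3 and 144.0 CPM) as in those without (123.6 and 132.9 CPM). Tigit was too low for the fit. Of its 136 UMIs in CD8 T cells, 1 lay in the 124 cells with Tcf7 and the rest in the 2315 others. Its level was lower with Tcf7 in 6 of 6 libraries (exact two-sided sign-flip test, p = 0.031, the smallest 6 libraries can give). A library without a Tigit UMI in its few cells with Tcf7 counts as lower, so the test cannot tell a lower level from sparse counts. Cells with a Tcf7 UMI had a median of 2585.5 to 5636 UMIs by library and the others 2796 to 4081, and the part of depth in these differences was not tested.

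The lists of other genes were counted in the same split. Of the 7 other inhibitory receptors tested 6 were lower in cells with Tcf7 (median log2 difference -1.55), and of the 9 signalling genes 7 were lower (-1.28). Of 8 ligands 2 were lower (-0.78), of 3 costimulatory receptors 3 (-1.14) and of 13 regulators 7 (-0.96). Over all 6215 genes 9.83% were called lower, and the median was -0.0038. The named ones are Sh2d2a (-2.00, SE 0.23), an adaptor of the kinase LCK, Cd200r1 (-3.45, SE 0.47) and Id3 (1.53, SE 0.21), a factor of memory-like T cells, which was the only regulator of 13 that was higher. Among non-dividing cells alone (91 with Tcf7 and 1551 without; 12.7% of genes called), Havcr2 (-2.86, SE 0.38), Lag3 (-1.83, SE 0.30) and Pdcd1 (-1.79, SE 0.39) were lower and Cd160 (-0.36, SE 0.28, adjusted p = 0.49) did not pass. Ctla4 and Tigit were too low there for the fit.

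Dividing CD8 T cells, defined by at least 2 UMIs of Mki67 and Top2a, genes of the cell cycle, numbered 797, and the other cells of the gate 1642. Of the 6 receptors, 5 were lower in the dividing cells as a share of UMIs, where 32.2% of 7989 genes were called. Lag3 was at 101.5 to 162.5 CPM in dividing and 181.3 to 276.8 CPM in the other cells (-0.88, SE 0.09, adjusted p = 3.9e-07), so that no value overlapped. Pdcd1 differed by -0.67 (SE 0.10), Cd160 by -0.63 (SE 0.13), Ctla4 by -0.62 (SE 0.18) and Havcr2 by -0.44 (SE 0.10). Tigit had a difference of -0.75 (SE 0.29, adjusted p = 0.056), which passed without exercise 5 (adjusted p = 0.035) and with called doublets kept (adjusted p = 0.033). The call on Ctla4 was lost without sedentary 1 (adjusted p = 0.064), without exercise 5 (0.12) and with DESeq2 (0.098). Dividing cells had a median of 4930.5 to 7663 UMIs by library and the others 2309.5 to 3418, so a lower share of UMIs does not mean fewer UMIs per cell.

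**Figure D4:**
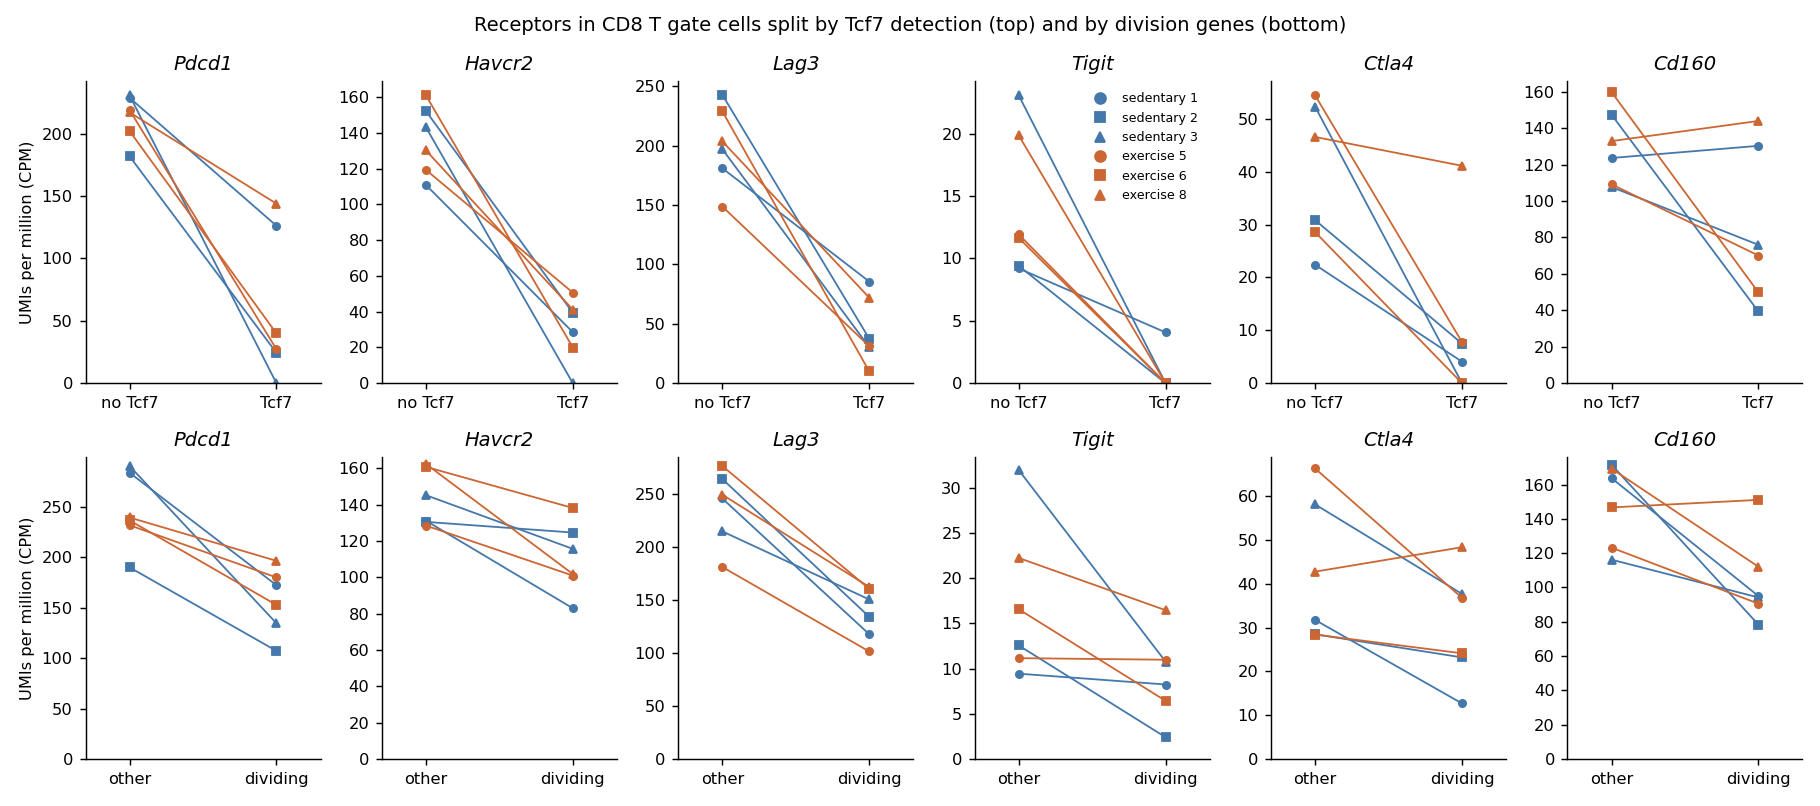
Level of each receptor in CPM (linear axis from 0) in CD8 T gate cells without and with a Tcf7 UMI (top) and in other and dividing cells (bottom). Each line joins the 2 values of a library, blue for sedentary and orange for exercise. Lag3, Havcr2 and Pdcd1 fall with Tcf7 in all 6 libraries, and Lag3 and Pdcd1 fall in dividing cells in all 6.

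A split by Havcr2 itself, added after the data had been seen, asked whether the 5 other receptors follow it. In all CD8 T cells (877 with a Havcr2 UMI and 1562 without; 8.94% of 7934 genes called) none of the 5 passed. Cells with Havcr2 were deeper, with a median of 3823 to 5053 UMIs by library against 2390 to 3772 (among non-dividing cells 2852.5 to 3753 against 2172 to 3264), and the part of depth was not tested. Lag3 had a log2 difference of 0.30 (SE 0.10, adjusted p = 0.078) and Pdcd1 one of 0.25 (SE 0.09, adjusted p = 0.089). With looser gates 4 of the 5 passed, Lag3, Pdcd1, Tigit and Cd160. Leaving out a library changed calls too: Lag3 passed without exercise 6 (0.38, adjusted p = 0.039) and Pdcd1 without exercise 8 (0.33, adjusted p = 0.027). Among non-dividing cells (488 with and 1154 without; 5.63% of 4634 genes called), Lag3 (0.53, SE 0.11, adjusted p = 0.0032) and Pdcd1 (0.47, SE 0.13, adjusted p = 0.021) were higher with Havcr2, of 4 tested. There Lag3 was at 232.2 to 342.1 CPM with and 139.4 to 243.0 CPM without Havcr2 UMIs, and it was higher in all 6 libraries. Pdcd1 was higher in 5 of 6 libraries and lower in exercise 8 (211.3 against 253.0 CPM). The call on Lag3 was lost without exercise 5 (adjusted p = 0.11), and that on Pdcd1 without sedentary 2 (0.15), exercise 5 (0.20) or exercise 6 (0.069) and with DESeq2 (0.14). In the whole gate 1 of 10 listed ligands, 3 of 17 regulators and 2 of 9 signalling genes were higher with Havcr2, and 2 regulators were lower. Of 9 other inhibitory and 3 costimulatory receptors 0 were called. Over all genes 3.69% were called higher and 5.24% lower. Of the listed partners in the whole gate, Tcf7 was lower with Havcr2 (-2.11, SE 0.30), while Irf4 (1.19, SE 0.25), Sh2d2a (0.39, SE 0.08) and Hmgb1 (0.29, SE 0.05), whose protein is a TIM-3 ligand, were higher.

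Macrophages carried 2 of the receptors, Havcr2 and Lag3, and their levels differed in opposite directions with C1qa. That gene, a complement component of mature tissue macrophages, was used to split the gate after the data had been seen, into 3405 cells with a C1qa UMI and 1821 without. Havcr2 was at 49.1 to 76.5 CPM in cells with C1qa and at 104.7 to 198.0 CPM in those without, lower with C1qa in 6 of 6 libraries (log2 difference -1.32, SE 0.12, adjusted p = 1.4e-06), where 29% of 10145 genes were called. Lag3 ran the other way, at 18.8, 8.62 and 9.83 CPM in the sedentary and 3.06, 9.96 and 19.4 CPM in the exercise libraries with C1qa, from 249 UMIs. Without C1qa it was at 0 to 3.06 CPM from 10 UMIs, lower in 6 of 6 libraries (exact two-sided sign-flip test, p = 0.031, the smallest 6 libraries can give). Lag3 had too few counts for the edgeR fit, and it was called with the looser gates (2.33), the stricter gates (2.80) and without exercise 5 (2.89). Cells without C1qa were shallower, with a median of 2924 to 4099 UMIs by library against 5316 to 7203.5, and the part of depth was not tested. Sedentary 2, the library with the highest Havcr2 in this gate, had the lowest share of cells with C1qa. That share was 44.7%, against a median of 73.2% over libraries, and its part in the Havcr2 level was not tested.

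**Figure D5:**
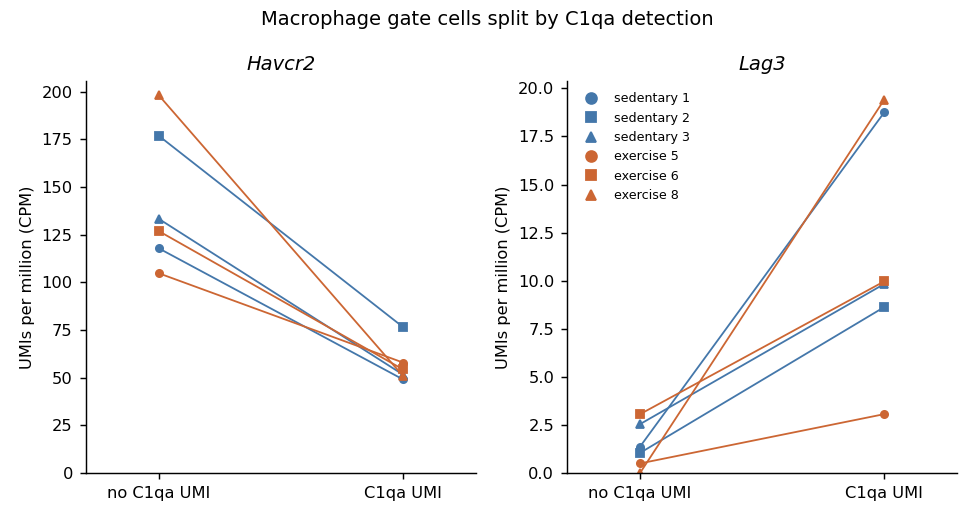
Havcr2 and Lag3 in CPM (linear axes from 0) in macrophage gate cells without and with a C1qa UMI. Each line joins the 2 values of a library, blue for sedentary and orange for exercise. Havcr2 is lower and Lag3 higher with C1qa in 6 of 6 libraries.

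The 215 macrophage gate cells with a Lag3 UMI (14 to 60 per library) were then compared with the 5011 others, where 8.83% of 9290 genes were called. Higher in them were Ccl8 (log2 difference 2.51, SE 0.20), a chemokine, Vcam1 (1.80, SE 0.16), Apoe (1.48, SE 0.15), the iron exporter gene Slc40a1 (2.38, SE 0.25), the folate receptor gene Folr2 (1.81, SE 0.19) and Igf1 (1.92, SE 0.23). Lower were Ly6c2 (-3.41, SE 0.16), a marker of inflammatory monocytes, and Crip1 (-2.59, SE 0.12). These genes were named after their values were seen, out of 403 higher and 417 lower. C1qa was found in 95.8% of the cells with Lag3 and 63.8% of the others, and Cd4, whose product shares its ligand with LAG-3, in 26.0% and 3.89%. By library, Cd4 was found in 12.5% to 57.1% of the cells with Lag3 and 2.07% to 7.28% of the others. Havcr2 was lower in the cells with Lag3 (-0.72, SE 0.19, adjusted p = 0.017), a call lost without sedentary 2 (-0.56, adjusted p = 0.13) or exercise 6 (-0.60, adjusted p = 0.077) and with called doublets kept (adjusted p = 0.050). Cells with Lag3 had a median of 6290 to 9715 UMIs and the others 4514 to 5841, and the part of depth was not tested.

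Markers of other Lag3-bearing cells were measured in the same 215 cells. The gate admits no cell with a UMI of Cd3d, Cd3e or Cd3g. The cytotoxic gene Nkg7 was found in 2.33% of the cells with Lag3 and 3.03% of the others, Siglech, a marker of plasmacytoid dendritic cells, in 1 of 215, Pdcd1 in 2 and Ctla4, Tigit and Cd160 in 0. A count of 0 of 215 cells allows a share of up to 1.40% of cells with a UMI, which limits detection and not expression. The gate held 12.3 UMIs of Lag3 for each of Pdcd1, against 0.890 in CD8 T cells and 8.08 in NK cells.

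Across the 49 sums of gate and library, the genes whose log2 level followed each receptor most closely were ranked by Pearson's r, as a description over sums that share libraries and cell types. They were Cd3g (0.86), Ubash3a (0.86) and Cxcr6 (0.86) for Pdcd1, Ccdc69 (0.82), Sdhb (0.81) and Csk (0.81) for Havcr2, and Cst7 (0.94), Rasal3 (0.90) and Tspan32 (0.90) for Lag3. For Tigit they were Faah (0.92), Camk4 (0.91) and Dnah8 (0.91), for Ctla4 Bcl11b (0.93), Podnl1 (0.92) and Cd3g (0.91), and for Cd160 Qrfp (0.95), Gm37387 (0.95) and Ifitm10 (0.91). The highest r was lower for Havcr2 than for each of the 5 other receptors.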

How the data were processed

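The deposited files hold unnormalized UMI counts of genes in cell barcodes (10x 3' V3 chemistry) for 3 sedentary and 3 exercise libraries. They were made with Cell Ranger 6.1.2 on mm10 per the submitters' processing notes, while the matrices' software version is 3.1.0 per the file headers. Of 58351 barcodes, 52390 passed limits of 300 genes and 500 UMIs from below and of 20% mitochondrial UMIs from above. Scrublet (scanpy 1.11.5) called 861 of them doublets (0.946% to 2.42% by library), which were left out.

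Cells were gated by UMIs of marker genes: CD8 T (Cd3 genes and Cd8 genes without Cd4 or Foxp3), Treg (Cd3 genes and Foxp3), other CD4 T (Cd4 without Foxp3 or Il2ra), NK (Ncr1, Klrb1c and Klre1 without Cd3d or Cd3e), macrophages (Csf1r, Adgre1, Ms4a7, Cd68 and another marker that is not reported here, with Ptprc), cDC1 (Xcr1 and Clec9a), mature dendritic cells (Ccr7, Il4i1 and Ccl22), neutrophils, and non-immune cells (Cspg4, Cdh2 and Nes without Ptprc). Counts were summed per library and gate, and only these sums were tested. edgeR 4.0.16 (R 4.3.3) used TMM scaling, filterByExpr and the quasi-likelihood test, with Benjamini-Hochberg adjustment over all genes tested and a threshold of 0.05. Gates and cell states within a gate were compared with the library as a block. Sums of gates held at least 10 cells, while sums of cell states had no minimum and held as few as 5 cells. Shares of cells with a receptor used cells thinned to 2000 UMIs (seed 1) and exact two-sided permutation tests over libraries (scipy 1.17.1), adjusted over 40 measures. Cells are not replicates and were not tested.

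The 6 receptors, the marker gates and the gene lists were chosen with earlier results of these data known. The splits by Havcr2, C1qa and Lag3 were added after the data had been seen. Of the lists, up to 4 genes with the smallest unadjusted p are named per gate or split, and for each receptor the 3 genes with the highest Pearson correlation. Alternatives were DESeq2 1.42.0, no filter on low counts, looser and stricter gates, doublets kept, 1000 UMIs, another seed (2) and each library left out. On simulated counts with genes changed 4-fold, edgeR called 178 of 180 in CD8 T cells, 146 of 171 in Treg, 181 of 184 in NK cells and 191 of 195 in macrophages, with 17, 7, 12 and 17 false calls among 9383, 1785, 5537 and 10601 genes. Changed genes that failed the filter on low counts are not counted there, and smaller changes were not simulated.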

Additional observations from a re-analysis of the deposited data

How the results depend on the processing

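No receptor passed the test of exercise against sedentary libraries under any alternative. No paired analysis was possible because the labels give the 2 groups no shared replicate numbers. The count of genes passing between exercise and sedentary libraries did move. In CD8 T cells (0) it was 3 with DESeq2, 121 without a filter on low counts and 0 to 3 with a library left out. In Treg (0) it was 34 without the filter and 0 to 78 with a library left out. In NK cells (0) it was 1 with DESeq2, 26 without the filter, 3 with looser gates, 1 with doublets kept and 0 to 1 with a library left out. In macrophages (1) it was 85 with DESeq2, 188 without the filter, 0 with looser and 0 with stricter gates, and 0 to 1 with a library left out. These fold changes turned sign: in CD8 T cells Cd160 (-0.0155), Havcr2 (-0.0371) and Pdcd1 (-0.0552) with doublets kept and Lag3 (0.0299) with stricter gates, in Treg Ctla4 (0.12) with stricter gates, and in NK cells Lag3 (-0.39 with looser gates, -0.02 with doublets kept). With a library left out the ranges were -0.0122 to 0.23 for Cd160, -0.0341 to 0.16 for Havcr2, -0.16 to 0.11 for Lag3 and -0.11 to 0.19 for Pdcd1 in CD8 T cells, -0.94 to 0.40 for Ctla4 in Treg, -0.26 to 0.36 for Lag3 in NK cells, and -0.50 to 0.0804 for Havcr2 and -0.87 to 0.49 for Lag3 in macrophages. The mean number of receptors per thinned cell, exercise minus sedentary, turned from 0.0225 in CD8 T cells to -0.0217 at 1000 UMIs, -0.0332 with stricter gates and -0.0360 with doublets kept. In NK cells it turned from 0.0183 to -0.0206 at 1000 UMIs, -0.0259 with another seed and -0.0296 with looser gates. In Treg it turned from -0.223 to 0.106 with another seed, 0.00257 at 1000 UMIs and 0.0437 without exercise 8, and in macrophages from -0.0289 to 0.0106 without sedentary 2. Between gates, Havcr2 turned with looser gates for CD8 T cells (0.50) and macrophages (0.0773) against cDC1. Of the receptors that differed between CD8 T cells and Treg (5), 3 passed with stricter gates, 3 with DESeq2 and 3 to 5 with a library left out. In the split by Havcr2 (0) 4 passed with looser gates, 1 with stricter gates, 2 among non-dividing cells and 0 to 1 with a library left out. In the macrophage split by C1qa (1) 2 passed with looser gates, 2 with stricter gates and 1 to 2 with a library left out, and in that by Lag3 (1) 0 passed with doublets kept and 0 to 1 with a library left out. The cause was not tested in any of these. Few cells limit the Treg, other CD4 T, dendritic cell and neutrophil values.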
